A study of Mus musculus with 6 samples.

Results

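Transcripts that mark macrophages were followed in bulk RNA-seq libraries of sorted regulatory T cells (Treg cells, the suppressive CD4 lineage defined by Foxp3). The set was given as 10 gene symbols, C1qa, C1qb, C1qc, Cst3, Fcgr3, Itgax, Csf1r, Lyz2, Cd68 and Adgre1, and each symbol matched a single row among 32090 genes. The cells were live CD45+ CD4+ Foxp3+ cells sorted from the colonic lamina propria of untreated C57/BL6 mice. The WT group was Foxp3YFP-Cre, in which a YFP-tagged Cre recombinase is expressed from the Foxp3 gene. The KO group was Il23rflflFoxp3YFP-Cre, in which this Cre is combined with floxed Il23r, encoding a chain of the interleukin-23 receptor, so that both groups carried the Cre and only cells that express Foxp3 are meant to lose the receptor. Each group had 3 libraries, and a library was made from the pooled cells of 5 or more mice. The labels used here give neither age nor sex.

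Macrophages are tissue phagocytes that clear dying cells and microbes, and the lamina propria of the colon holds many of them close to its T cells. They secrete complement C1q, are kept alive through the receptor for CSF1, bind antibody-coated particles through Fc receptors, and degrade what they engulf in lysosomes. None of these transcripts is a defining product of T cells, although Itgax and Cst3 are also made by dendritic cells, and other leukocytes can express several of the set.

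Depth and labels were checked first. Sets of 3 values are given below in the order of the replicate numbers, so that the first KO value is always that of the library labelled KO1. Estimated counts summed to between 9680503 and 20654340 per library, and RNA integrity numbers lay between 7.9 and 8.8 except for 5 in WT2. WT1 and KO1 came from sort batch A, WT2 and WT3 from batch B, and KO2 and KO3 from batches C and D, so that only batch A holds both groups. Il23r stood at 18.4 CPM (counts scaled to a common library size by TMM) in the library labelled KO1, inside the WT range of 13.6 to 38.3 CPM, against 4.99 and 8.96 CPM in KO2 and KO3. The labels used here do not say which part of Il23r is floxed. Counts summed over a whole gene cannot show whether a part of it was lost. Whether the library labelled KO1 had lost the receptor was not tested. KO2 and KO3 were the most alike of all pairs of libraries, with a median chi-square of 3.25 per gene, where sampling noise alone gives 0.455 and the other pairs gave 14.9 to 33.6. They were kept as 2 libraries, and counts of calls with both summed into 1 are among the alternatives. Xist, the RNA of the inactive X chromosome, was between 1182 and 3472 CPM in the KO libraries and at most 0.284 CPM in WT, so that sex and genotype cannot be told apart in any comparison here. Summed over Ddx3y, Eif2s3y, Kdm5d and Uty, Y-linked expression ran from 264 to 475 CPM in WT and from 2.19 to 179 CPM in KO.

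The sorted cells carried Treg and T cell transcripts at levels far above those of the macrophage set. Foxp3 averaged 1043 ± 425 CPM across WT and 1365 ± 239 CPM across KO, and Cd3e, a chain of the T cell receptor complex, 1201 ± 96.3 and 1144 ± 185 CPM (SD, n = 3). Together the 10 macrophage markers took up 0.0246% of all counts in WT1 (95% Wilson interval 0.0237% to 0.0256%), 0.0220% in WT2 (0.0211% to 0.0229%) and 0.0320% in WT3 (0.0312% to 0.0328%). In KO they took up 0.0733% in the library labelled KO1 (0.0722% to 0.0745%), 0.0446% in KO2 (0.0437% to 0.0456%) and 0.0337% in KO3 (0.0328% to 0.0346%). The intervals treat each count as an independent draw and hold no variation between libraries. Reads amplified without molecular identifiers do not each stand for a molecule, so the intervals understate even the counting error. As a scaled level, KO3, at 342 CPM, lay next to WT3, at 340.2 CPM, and the library labelled KO1, at 675 CPM, was the highest. In bulk RNA, a larger number of cells of a type and more RNA per cell cannot be told apart.

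The first question was whether the markers differed between WT and KO. All 10 had enough counts to be tested, and all 10 had a positive log2 fold change of KO over WT, against 47.4% of all genes tested. Their median was 0.99, against -0.04 over all 12557 genes tested. After adjustment over all genes 0 of the 10 were called in either direction by the quasi-likelihood test of edgeR, where 0.0159% of all genes were called higher and 0.00796% lower in KO. At an unadjusted p under 0.05, 7 of the 10 were higher in KO and 0 lower, against 5.02% of all genes higher and 9.37% in either direction. That count of 7 was 3 (C1qb, Cst3 and Fcgr3) without the library labelled KO1, 4 without WT2, 5 to 7 without each other library, and 3 in limma-voom with quality weights. Every KO library lay above every WT library in 4 of the 10, against 9.68% of all genes, and below every WT library in 0 of the 10, against 8.01%. With 3 libraries against 3, the exact permutation test on a single gene cannot give a two-sided p below 0.1. It gives that value whenever the groups do not overlap, so its 0.1 for C1qb, Cst3, Fcgr3 and Itgax only restates their lack of overlap.

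**Figure D1:**
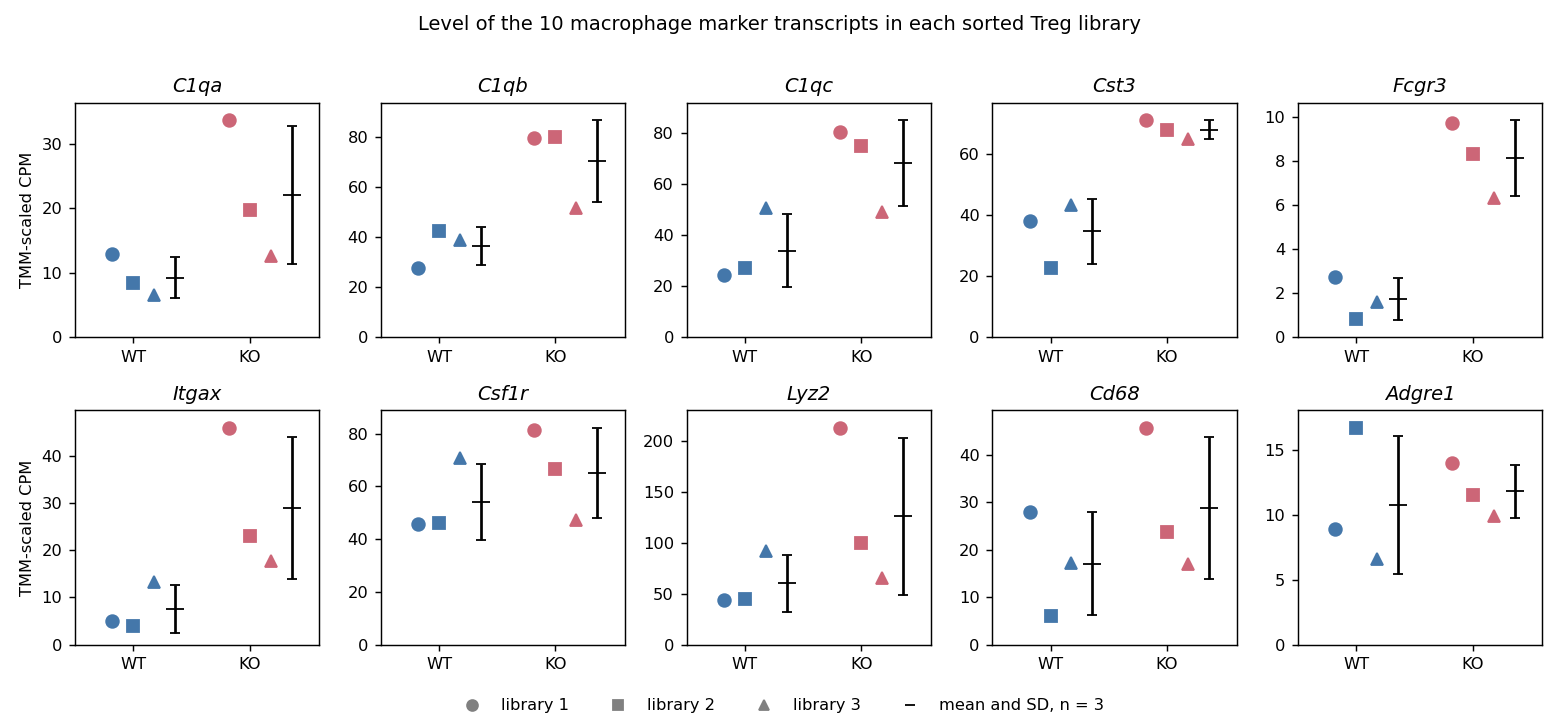
Level of each of the 10 macrophage markers in TMM-scaled CPM (vertical axes, each from 0) by group (horizontal axes). Each symbol is a library (circle, square and triangle for replicates 1, 2 and 3), and the black bar is the mean with its SD over 3 libraries. The groups are apart in C1qb, Cst3, Fcgr3 and Itgax, and the highest symbol is the library labelled KO1 in 8 of the 10 genes.

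The C1q chains come first. C1qa, C1qb and C1qc encode the A, B and C chains that assemble into C1q, the recognition subunit that starts the classical complement pathway, and macrophages are a main source of it. C1qa (Entrez 12259) was at 12.8, 8.43 and 6.47 CPM for WT and at 33.7, 19.8 and 12.6 CPM for KO. KO3 lay just below WT1, so the groups overlapped, and the log2 fold change was 1.26 (SE 0.51; edgeR, adjusted p = 0.505), or 0.80 if the library labelled KO1 is left out. C1qb (Entrez 12260) was at 27.7, 42.4 and 38.7 CPM in WT and at 79.7, 79.8 and 51.4 CPM in KO. All 3 KO libraries lay above all WT libraries, with a log2 fold change of 0.95 (SE 0.29) that was not called (edgeR, adjusted p = 0.436). C1qc (Entrez 12262) was at 24.2, 27.1 and 50.4 CPM in WT and at 80.6, 75.1 and 48.9 CPM in KO. Here WT3 exceeded KO3, and the log2 fold change of 1.004 (SE 0.35) was not called (edgeR, adjusted p = 0.487).

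The 3 chains are needed together in the assembled protein, and C1qb and C1qc kept a near 1 to 1 ratio in KO while C1qa was lower. The ratio of C1qc to C1qb in CPM was 0.874, 0.639 and 1.30 in WT1, WT2 and WT3 and 1.01, 0.941 and 0.951 in KO. The ratio of C1qa to C1qb was 0.463, 0.199 and 0.167 in WT and 0.423, 0.248 and 0.245 in KO, highest in the pair of libraries from sort batch A. Per kilobase of the longest coding transcript in GENCODE M21, the mean level in WT was 8.89 CPM for C1qa, 33.4 CPM for C1qb and 28.2 CPM for C1qc, and in KO 21.2, 64.6 and 56.7 CPM in the same order. The annotation the authors counted on is not given in the sources used here, so these lengths are approximate.

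Promoter sequences are shown for C1qb and C1qc, the C1q chains found in the RefSeq table (GRCm38.p6), and for Fcgr3 and Itgax, the members with the highest fold changes. PU.1, encoded by Spi1, is a transcription factor of macrophages that recognises sites around GAGGAA. Each line holds the 250 bases before the annotated start, 5′ to 3′ in the direction of transcription, in lower case with matches to GAGGAA on either strand in capitals. The windows are chr4:136886201-136886450 on the minus strand for C1qb, chr4:136892915-136893164 on the minus strand for C1qc, chr1:171059404-171059653 on the minus strand for Fcgr3 and chr7:128129300-128129549 on the plus strand for Itgax.
C1qb: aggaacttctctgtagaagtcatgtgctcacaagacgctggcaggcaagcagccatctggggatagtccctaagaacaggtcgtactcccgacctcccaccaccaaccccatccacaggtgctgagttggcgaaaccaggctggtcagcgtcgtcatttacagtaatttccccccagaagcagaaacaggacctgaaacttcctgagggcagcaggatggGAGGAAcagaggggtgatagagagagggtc
C1qc: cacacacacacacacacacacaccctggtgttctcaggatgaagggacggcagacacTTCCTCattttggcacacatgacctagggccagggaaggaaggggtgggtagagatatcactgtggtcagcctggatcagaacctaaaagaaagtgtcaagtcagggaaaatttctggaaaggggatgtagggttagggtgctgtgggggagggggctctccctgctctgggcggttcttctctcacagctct
Fcgr3: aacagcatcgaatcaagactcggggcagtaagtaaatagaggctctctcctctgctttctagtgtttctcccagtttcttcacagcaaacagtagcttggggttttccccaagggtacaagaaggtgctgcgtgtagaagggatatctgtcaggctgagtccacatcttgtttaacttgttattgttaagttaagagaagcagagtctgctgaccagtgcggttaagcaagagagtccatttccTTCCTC
Itgax: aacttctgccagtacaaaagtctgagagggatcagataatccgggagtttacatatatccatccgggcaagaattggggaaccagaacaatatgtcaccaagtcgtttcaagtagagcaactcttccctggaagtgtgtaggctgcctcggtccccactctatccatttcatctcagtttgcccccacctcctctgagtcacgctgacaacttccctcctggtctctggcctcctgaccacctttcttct

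In these windows C1qb held GAGGAA as printed, C1qc and Fcgr3 held it on the other strand, read as TTCCTC, and Itgax had no match. Of the 7 members found in the table (C1qb, C1qc, Cst3, Fcgr3, Itgax, Lyz2 and Cd68), 5 held GAGGAA on either strand, against 23.1% of 27025 promoters of the same length. A match describes letters only and says nothing of binding.

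Spi1 itself was also measured. It had 6.60, 0.617 and 2.16 CPM in WT, and 16.1, 20.02 and 13.9 CPM in KO. No KO library overlapped WT, and the log2 fold change of 2.41 (SE 0.79) was not called (edgeR, adjusted p = 0.472).

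Among the surface receptors, Fcgr3 and Itgax had the widest differences of the set, while Csf1r and Adgre1 had the smallest. Fcgr3 (Entrez 14131) encodes CD16, a low-affinity receptor for the Fc part of IgG. It was at 2.73, 0.822 and 1.59 CPM in WT and at 9.75, 8.34 and 6.33 CPM in KO, which separated the groups. The log2 fold change was 2.24 (SE 0.73; edgeR, adjusted p = 0.472), and the WT levels rest on 29, 8 and 28 counts. Other Fc receptor genes are close in sequence to Fcgr3, so reads may have been divided among them.

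Itgax (Entrez 16411) encodes CD11c, an integrin chain of dendritic cells and of many intestinal macrophages. Its level was 5.09, 4.01 and 13.3 CPM in WT and 46.0, 23.1 and 17.7 CPM in KO. The KO libraries were all above WT, with the library labelled KO1 far above the others, and the log2 fold change was 1.94 (SE 0.59; edgeR, adjusted p = 0.436). Without the library labelled KO1 it was 1.43.

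Csf1r (Entrez 12978), the receptor for CSF1 and interleukin-34 on which macrophages depend, was at 45.6, 46.1 and 70.9 CPM in WT and at 81.4, 66.6 and 47.1 CPM in KO. The groups overlapped through WT3 and KO3, and the log2 fold change was 0.26 (SE 0.30; edgeR, adjusted p = 0.811). With each library left out it ran from 0.058 without the library labelled KO1 to 0.51 without WT3. Adgre1 (Entrez 13733) encodes F4/80, an adhesion-class receptor long used to stain mouse macrophages. It was at 8.96, 16.8 and 6.64 CPM in WT and at 14.0, 11.6 and 9.97 CPM in KO. All KO values lay between the lowest and the highest WT value, with a log2 fold change of 0.14 (SE 0.52; edgeR, adjusted p = 0.95). Its highest level was in WT2, the library with the lowest RNA integrity. The same library was the lowest of 6 for 4 of the 10 members, Cst3, Fcgr3, Itgax and Cd68. WT2 was lowest in 27.2% of all genes tested. WT1, with an RNA integrity number of 8.2, was likewise the lowest for 4 members, C1qb, C1qc, Csf1r and Lyz2. Of all genes tested, 17.6% were lowest in WT1.

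The secreted and lysosomal products lay between these extremes. Cst3 (Entrez 13010) encodes cystatin C, a secreted inhibitor of cathepsins. It was at 38.2, 22.7 and 43.2 CPM in WT and at 71.1, 67.9 and 64.9 CPM in KO. The KO libraries were close to each other and all above WT, and the log2 fold change was 0.97 (SE 0.29; edgeR, adjusted p = 0.436).

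Lyz2 (Entrez 17105) encodes the lysozyme of myeloid cells, which cleaves bacterial cell walls. The WT libraries held 43.8, 44.3 and 91.8 CPM and the KO libraries 212.8, 99.3 and 65.5 CPM. WT3 was above KO3, and the library labelled KO1 was above every other. The log2 fold change was 1.07 (SE 0.45; edgeR, adjusted p = 0.522). Leaving out the library labelled KO1 gave 0.44. Lyz1, a near-identical paralog that could share its reads, had 122 counts in the library labelled KO1, 3 and 2 in KO2 and KO3, and 0 in WT.

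Cd68 (Entrez 12514) encodes macrosialin, a glycoprotein of the lysosomal membrane. It stood at 27.9, 6.06 and 17.1 CPM in WT and at 45.6, 23.7 and 17.1 CPM in KO. The groups overlapped, with WT1 above KO2 and KO3, and the log2 fold change was 0.76 (SE 0.58; edgeR, adjusted p = 0.708). It was 0.25 without the library labelled KO1, 0.35 without WT2 and 1.29 without WT1.

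Within sort batch A, the only batch with both groups, the library labelled KO1 was above WT1 in all 10 members, where 50.9% of all genes tested were higher in it. The log2 differences ran from 0.64 for Adgre1 to 3.14 for Itgax, with a median of 1.45 and no replicate error. In the authors' deposited table, Fcgr3 (log2 fold change 2.25, adjusted p = 0.0173) and Itgax (1.94, adjusted p = 0.0315) were called, the other 8 members were not, and 1.46% of its rows with an adjusted p were called higher in KO. That table gave Csf1r a log2 fold change of -0.12. DESeq2 run on the counts called Fcgr3 (adjusted p = 0.0390) but not Itgax (adjusted p = 0.0522), where it called 1.21% of genes higher.

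**Figure D2:**
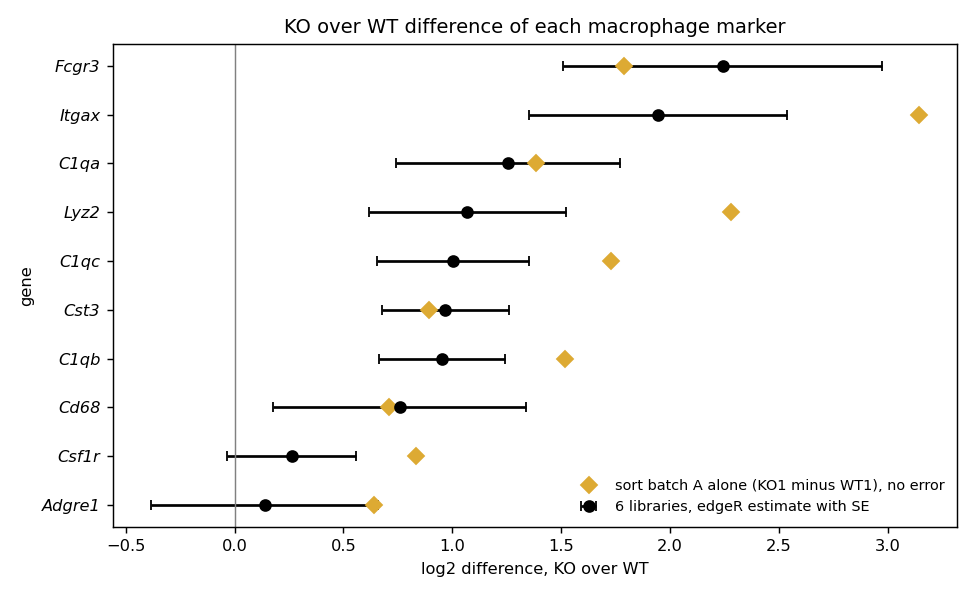
Difference of KO over WT on the log2 scale (horizontal axis) for each macrophage marker (vertical axis). Black points are the edgeR estimates from 6 libraries with their SE, and diamonds are the difference between the library labelled KO1 and WT1 alone, which has no error. Fcgr3 at 2.24 and Itgax at 1.94 are farthest from 0, and Adgre1 at 0.14 is nearest.

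The second question was whether the markers vary together across libraries. In 8 of the 10 members the library labelled KO1 held the highest level, against 16.5% of all genes tested, and the exceptions were C1qb (KO2) and Adgre1 (WT2). In 9 of the 10 the level was higher in the library labelled KO1 than in KO2 and higher in KO2 than in KO3, an order found in 18.2% of all genes tested. No KO library was the lowest for any member. Among the WT libraries the order was less uniform, with WT3 above WT1 in 6 members, WT3 above WT2 in 7, and WT1 above WT2 in 5.

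Over the 6 libraries, 41 of the 45 pairs of members had a positive Pearson r of log2 CPM, with a median r of 0.70 and a median Spearman rho of 0.71. The exact permutation p treats the 6 libraries as interchangeable, although they are 2 groups of 3 with KO2 close to KO3. Whether KO2 and KO3 are independent was not tested, and a shared difference between groups contributes to every r. Cst3 and Itgax ranked the libraries identically (Pearson r 0.91, exact permutation p = 0.00278; Spearman rho 1, exact permutation p = 0.00278), and so did C1qc and Lyz2 (r 0.91, p = 0.00694; rho 1, p = 0.00278). The highest r was 0.96 between C1qc and Itgax (exact permutation p = 0.00556; rho 0.89, p = 0.0333). None of the 45 pairs passed after Benjamini-Hochberg adjustment over the 45 (smallest adjusted p = 0.0729 for Pearson and 0.0625 for Spearman), while 12 had an unadjusted permutation p under 0.05 for Pearson and 11 for Spearman. Leaving out the 2 libraries farthest from the median of the first gene of each pair, 40 of 45 pairs were positive with a median r of 0.67. For Cst3 with Itgax that r was 0.76, for C1qc with Lyz2 0.81 and for C1qc with Itgax 0.86.

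After the mean of each group was taken away, 35 of 45 pairs were positive and the median r was 0.40, from -0.88 for Cst3 with Adgre1 to 0.96 for Csf1r with Lyz2. C1qc with Itgax gave 0.89 and Itgax with Lyz2 0.95. Fcgr3 with Cd68 gave 0.96. The C1q chains were less alike within groups, at 0.66 for C1qb with C1qc, 0.20 for C1qa with C1qb and 0.0091 for C1qa with C1qc. Adgre1 stood apart, with a median r of 0.02 to the other 9 members over all libraries and of -0.33 after group means were removed. These within-group values are given as a description and were not tested.

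**Figure D3:**
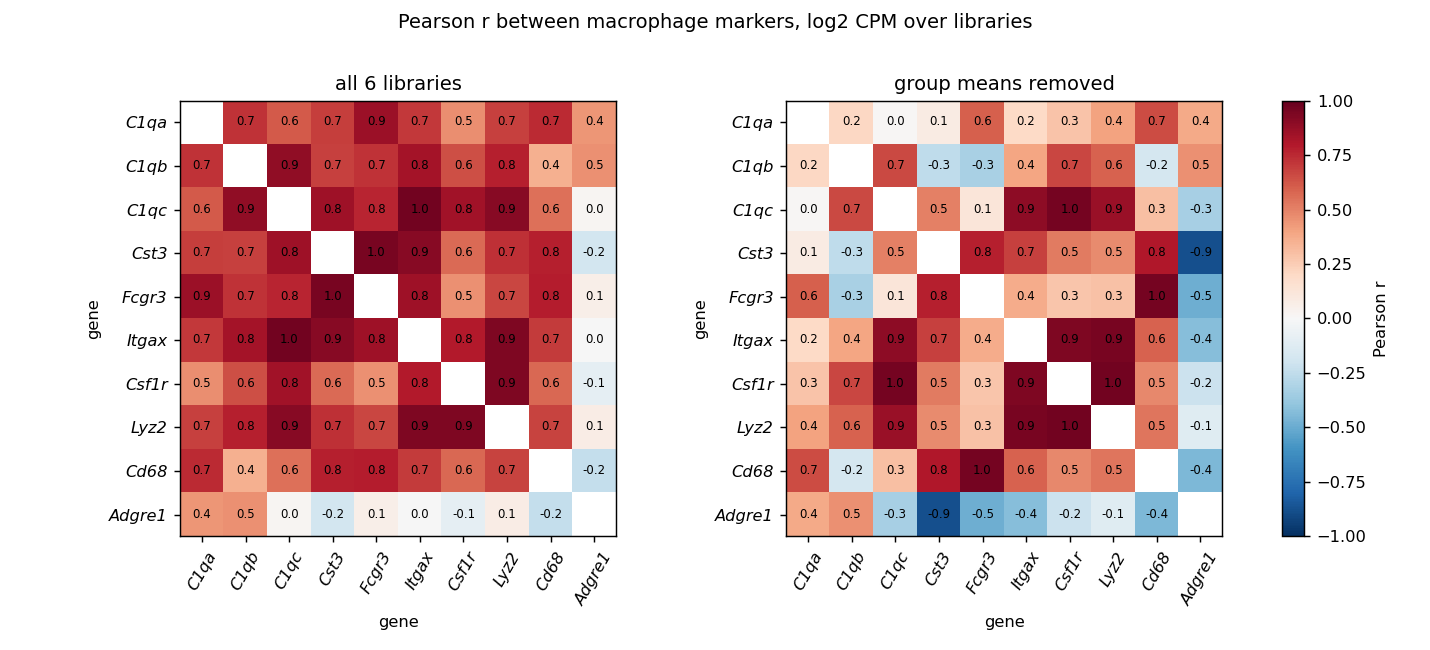
Pearson r of log2 CPM for each pair of macrophage markers (both axes list the genes), over all 6 libraries on the left and after the mean of each group was removed on the right. Red is positive and blue negative. Of the 45 pairs, 41 are positive on the left and 35 on the right, and the negative values gather in the row of Adgre1.

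Other macrophage and monocyte markers were read from a list of 28 genes, 25 of which were tested. Of these 0 passed in either direction, 21 had a positive log2 fold change, the median was 0.85, 5 had an unadjusted p under 0.05 (9.37% of all genes), and 8 had all KO libraries above WT (9.68% of all genes). Sirpa, an inhibitory receptor of myeloid cells, was at 13.6, 5.14 and 16.8 CPM in WT and at 55.0, 38.5 and 25.6 CPM in KO (log2 fold change 1.74, SE 0.49; edgeR, adjusted p = 0.433). DESeq2 called it (adjusted p = 0.0390). Apoe, a lipid carrier secreted by macrophages, was at 121, 52.7 and 236 CPM in WT and at 604.6, 337 and 222 CPM in KO, so WT3 reached above KO3 (log2 fold change 1.504, SE 0.52; edgeR, adjusted p = 0.487). Ctss, a lysosomal cathepsin of antigen-presenting cells, averaged 70.1 ± 39.0 CPM across WT and 107 ± 18.7 CPM across KO (SD, n = 3). The tested genes with a negative log2 fold change were Ly6c2 (-1.88), Ms4a6c (-1.25), Trem2 (-0.43) and Ccr2 (-0.0016). Ly6c2 was at 0, 2.98 and 20.4 CPM in WT and at 1.56, 3.16 and 1.63 CPM in KO. The most abundant genes of the list, Ccr2 and Lilrb4a, had WT and KO means close to each other. Both were still highest in the library labelled KO1. The KO libraries held 835, 590 and 588 CPM for Ccr2 and 912, 472 and 462 CPM for Lilrb4a. Ccr2, a chemokine receptor that T cells also express, was at 672 ± 71.3 and 671 ± 142 CPM, and Lilrb4a, an inhibitory receptor, at 593 ± 227 and 615 ± 257 CPM. The whole list summed to 1723, 1815 and 1639 CPM in WT and to 2999.6, 1969 and 1686 CPM in KO, with KO3 inside the WT range. Without this pair, left out after their values were seen, it summed to 364, 367 and 653 CPM in WT and to 1253, 907 and 636 CPM in KO.

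Genes that act beside the members were read in the same way. Of 5 tested Fc receptor genes other than Fcgr3, all 5 had a positive log2 fold change and 0 passed. Fcgr4, an activating IgG receptor, was at 0.189, 3.08 and 0.170 CPM in WT and at 7.08, 8.82 and 6.65 CPM in KO (log2 fold change 2.73, SE 1.14; edgeR, adjusted p = 0.511). Fcer1g, the signalling chain that these receptors share, was at 10.4 ± 8.885 and 19.5 ± 7.64 CPM (SD, n = 3). Fcgr2b, the inhibitory member, was at 18.6 ± 19.3 and 25.6 ± 15.2 CPM.

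Of 11 tested complement components and receptors, 0 passed and 8 were on the positive side (median log2 fold change 0.29). C5ar1 and C3ar1, the receptors of the complement fragments C5a and C3a, were at 5.81 ± 3.66 and 23.7 ± 9.26 CPM in WT and at 16.6 ± 8.13 and 40.3 ± 8.35 CPM in KO (SD, n = 3). Cd55, which limits complement activation on the cell that carries it, went the other way, with 53.5 ± 18.4 CPM for WT, 25.6 ± 9.21 CPM for KO, no overlap and no call (edgeR, adjusted p = 0.487). The proteases that join C1q in the first complement complex were close to absent, with C1rb at 0 counts in all 6 libraries and C1ra and C1s1 too low to be tested.

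In the list of CSF1 receptor ligands and macrophage transcription factors, 0 of 11 tested genes passed and 5 were on the positive side (median log2 fold change -0.04). Csf3r, the receptor for G-CSF, was at 1.70, 0.719 and 0.738 CPM in WT and at 7.04, 9.25 and 6.52 CPM in KO (log2 fold change 2.85, SE 0.76; edgeR, adjusted p = 0.420). Csf1, a ligand of Csf1r, averaged 99.0 ± 32.5 CPM across WT and 89.9 ± 22.6 CPM across KO, while Il34, its other ligand, was too low to be tested. Maf, which Treg cells express as well, was at 920 ± 159.5 and 896 ± 33.7 CPM (SD, n = 3).

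Of 9 tested MHC class II presentation genes, 7 were positive (median log2 fold change 0.26), as were 5 of 9 tested dendritic cell markers (0.10), and 0 passed in either list. The most abundant of the class II genes, Cd74, the invariant chain, averaged 663 ± 231 CPM across WT and 770.3 ± 155 CPM across KO, and the class II chains H2-Aa 349 ± 103 and 419 ± 73.2 CPM and H2-Ab1 239 ± 81.7 and 387 ± 69.9 CPM (SD, n = 3). H2-DMa and H2-DMb1, which together help load peptide onto class II, had opposite signs, with log2 fold changes of -0.69 (SE 0.37; edgeR, adjusted p = 0.586) and 1.39 (SE 0.59; edgeR, adjusted p = 0.522). Ciita, the master regulator of class II genes, had -0.71 (SE 0.69; edgeR, adjusted p = 0.776). Among dendritic cell markers, Clec9a, Flt3, Batf3, Clec10a, Fscn1 and Ccl17 were too low to be tested. Xcr1, a chemokine receptor of cross-presenting dendritic cells, was tested, with 10.4, 5.04 and 5.50 CPM in WT and 5.12, 6.997 and 4.95 CPM in KO, as was Zbtb46, a transcription factor of dendritic cells, with 11.3 ± 3.95 and 13.6 ± 2.39 CPM (SD, n = 3). Irf8 was at 29.8 ± 13.6 and 33.3 ± 11.6 CPM, and Cd83, which activated T cells also make, at 383 ± 42.0 and 412 ± 24.4 CPM.

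Lists for other cells were summed in the same way. The epithelial list summed to between 31.3 and 70.5 CPM in WT and to 74.4, 189 and 169 CPM in KO, so that among KO it was lowest in the library where the macrophage set was highest, and 1 of its 14 tested genes, Fcgbp, a mucus protein, was called higher (edgeR, adjusted p = 0.0169). Plasma cell genes summed to 2918, 7160 and 10351 CPM in WT and to between 3629 and 4106 CPM in KO, led by the immunoglobulin genes Igha and Igkc. The fibroblast and muscle list summed to 19.7, 28.5 and 27.6 CPM in WT and to 4.36, 18.3 and 15.1 CPM in KO. All KO sums of that list lay below WT, and 0 of its 7 tested genes were called. The sums for B cells, CD8 and cytotoxic cells, endothelium and erythroid cells overlapped between the groups. Neutrophil genes summed to at most 8.85 CPM in any library, with 0 counts everywhere for S100a8, S100a9, Ly6g, Elane, Retnlg and Camp, and among mast cell genes Cpa3, Mcpt1, Mcpt2, Mcpt4, Tpsb2 and Ms4a2 were at 0 counts everywhere. The list of mast cells, basophils and eosinophils summed to between 7.26 and 12.7 CPM in WT and to between 15.2 and 19.3 CPM in KO, of which Kit, a receptor that is not specific to mast cells, made up 7.26, 11.1 and 9.76 CPM in WT and 13.7, 18.01 and 19.1 CPM in KO. Of 15 tested lysosomal and endosomal genes 0 were called and 10 lay on the positive side (median log2 fold change 0.17). Treg identity genes summed to between 10334 and 11627 CPM in WT and to between 9965 and 11747 CPM in KO. What part other cells carried through the sort have in the members' values was not tested.

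**Figure D4:**
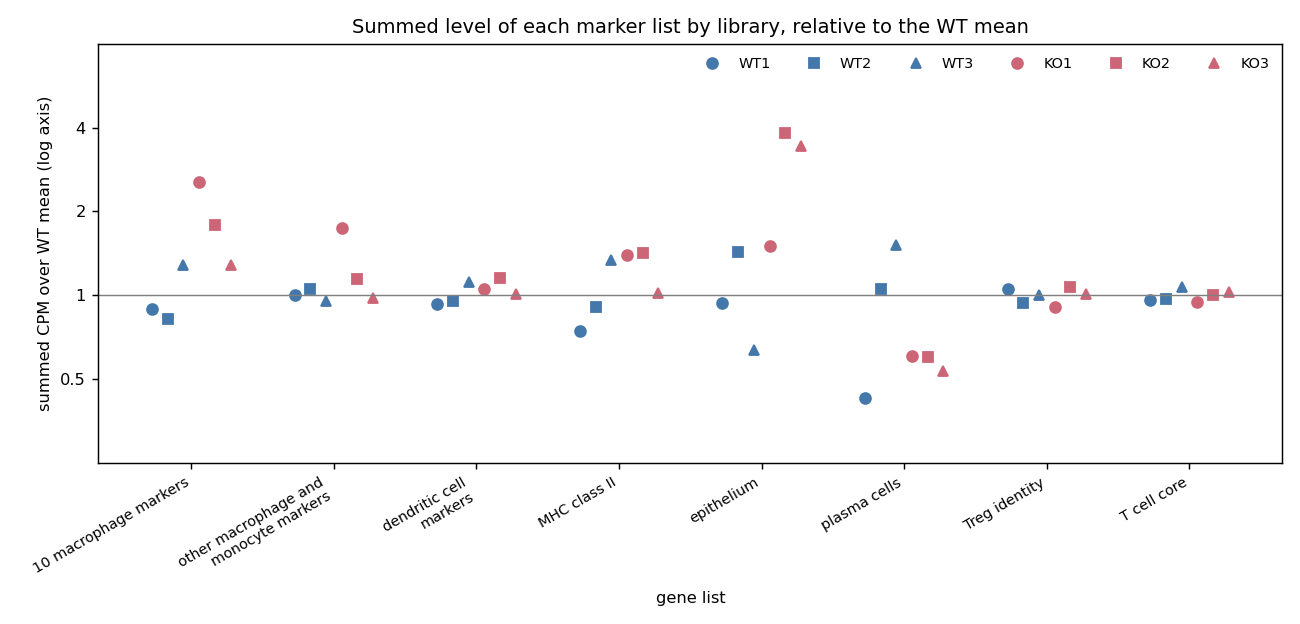
Summed CPM of each marker list in each library (symbols), divided by the mean of the 3 WT libraries (vertical axis, log scale), for 8 gene lists (horizontal axis). The 10 macrophage markers reach 2.54 times the WT mean in the library labelled KO1, 1.79 in KO2 and 1.29 in KO3, the epithelial list 1.51, 3.84 and 3.43, and the Treg identity list stays between 0.906 and 1.07 in all 6 libraries.

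Likeness to the members was measured as the Pearson r, over the 6 libraries, between log2 CPM and the mean of the members' standardised log2 CPM. Among 9112 other named genes with a mean of 5 CPM or more, the 8 most alike were Tbc1d9 (r 0.98), Plbd1 (0.98), Pak1ip1 (0.97), Rdh11 (0.97), Pdcd6 (0.97), Lingo4 (0.96), Ric8b (0.96) and Vapb (0.96). These were picked as the highest of 9112, carry no test, and include 0 genes of the marker lists. Tbc1d9 was at 1.32, 0.617 and 2.55 CPM in WT and at 14.3, 7.91 and 4.14 CPM in KO. Its order within KO was that of 9 of the 10 members and of 18.2% of all genes tested. Plbd1 was at 15.6, 11.2 and 14.4 CPM in WT and at 31.3, 24.2 and 18.4 CPM in KO. The 17 genes of the wider macrophage list among those 9112 all had a positive r, with a median of 0.74, against 49.6% positive and a median of -0.0064 over all 9112. After group means were removed, 16 of these 17 were positive with a median of 0.57, against 50.7% and 0.0079. The cutoff of 5 CPM was on the mean of all 6 libraries, so a gene could enter through its KO level. Of the 17, Spi1 did so, with a mean of 3.12 CPM in WT and 16.6 CPM in KO. Cd300a did too, with a mean of 4.77 CPM in WT and 10.8 CPM in KO. Among the 8 most alike, Tbc1d9 and Lingo4 also entered this way, each below 5 CPM in every WT library. Lingo4 was at 1.41, 0.617 and 3.29 CPM in WT and at 22.8, 7.42 and 6.08 CPM in KO. Ly6c2, Ms4a6c and Trem2, which had negative log2 fold changes, fell below the cutoff. The 17 genes are thus those that passed it and do not stand for the whole list.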

How the data were processed

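Sorted colonic Treg cells were lysed directly, and their RNA went through a Qiagen micro kit, Ovation V2 amplification and NEB library preparation, per the labels' protocols. Amplification from little RNA can lose or enrich rare transcripts. The submitters' processing notes name Salmon 1.4.0, fastp 0.20.0, DESeq2 1.34.0 and R 4.1.2, without their roles. For the authors' counts, no genome build, annotation or strand setting is stated in what was used here. The deposited table has 32161 rows with an estimated count per gene and library, rounded to whole numbers. Per the file headers, the authors also compared KO with WT and deposited a mean normalized signal, a log2 fold change with SE, a test score, and the p-value before and after adjustment. A second deposited table has 6 columns whose names match no sample, and these were not used.

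Rows sharing an Entrez identifier were summed (71 fewer, 32090 genes). Genes were kept by filterByExpr with at least 15 counts in total. It also asked for the CPM of 10 counts at the median library size in at least 3 libraries. After TMM scaling, 12557 genes entered a genotype-only quasi-likelihood test (edgeR 4.0.16, R 4.3.3). Benjamini-Hochberg adjustment ran over all of them, with calls at 0.05. Log2 CPM uses a prior count of 2, and the SE is the absolute log2 fold change over the square root of F. DESeq2 1.42.0 and limma 3.58.1 were alternatives, and the fits were tested on simulated data. Members, gene lists and naming rules were chosen with earlier results of these data known. The rule named all members, the most abundant genes of each list and, for the lists nearest to the members, those of smallest p. The genes described were selected from these after their values were seen. Added outside the rule were Timd4, Ly6c2, Ms4a6c, Trem2, Cd300a, H2-DMa, Ciita, Xcr1, Zbtb46, Il34, the undetected markers and the other untested genes. Promoters come from the RefSeq table of GRCm38.p6. Each library is a pool of mice, so p-values reflect how much pools differ.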

Additional observations from a re-analysis of the deposited data

How the results depend on the processing

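Of 170 member estimates with a test under the alternatives, 166 kept their direction and stayed uncalled, and the 10 between the library labelled KO1 and WT1 alone, which have no test, were positive. Fcgr3 was called by DESeq2, the sign of Csf1r turned in limma-voom with quality weights (log2 fold change -0.012), and that of Adgre1 turned without the library labelled KO1 (-0.0029) and without WT3 (-0.11), against 0.59 without WT2. The count of members called was 1 with DESeq2 and 0 in the other refits, those without each library included (0 to 0). DESeq2 likewise called 1 gene of the wider macrophage list. Over all genes, 3 were called in the main fit, 9 without a filter, 255 with DESeq2, 1 with RNA integrity as covariate, 1 with KO2 and KO3 summed, and 1 to 4 with each library left out. The median log2 fold change of the members was 1.45 between the library labelled KO1 and WT1 alone and 0.82 to 1.17 with each library left out. The median r between members was 0.40 with group means removed and 0.54 to 0.79 with each library left out, lowest without the library labelled KO1. With the replicate number as a block, 0 members and 3 genes in all were called and the members' median was 1.01. Same-numbered libraries deviated from their group means with correlations of 0.0093, 0.049 and 0.026. WT1 and KO1 shared sort batch A, so these low values do not settle whether the numbers pair the samples. The main fit also called 0 members, so the unchanged count says little of the block. Low depth limits Fcgr3 most, with 8 counts in WT2.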

Other observations

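With group means removed, the genes most like the members among the same 9112 were Smc5 (r 0.99), Zfand1 (0.99), Slc4a7 (0.99), Scfd1 (0.98), Mndal (0.98), Atf3 (0.98), Nkapd1 (0.97) and Cast (0.97). Over all 6 libraries with group means kept, Smc5, Slc4a7, Atf3, Nkapd1 and Cast had a negative r to the same profile (from -0.11 for Smc5 to -0.53 for Atf3). Atf3, a stress-induced transcription factor, had 162, 153 and 185 CPM in WT libraries 1 to 3, and 130.2, 115.5 and 100.5 CPM in KO, the library labelled KO1 first. Its order within KO was that of 9 members, and its order within WT that of Cst3 and Itgax. None of these genes belongs to a marker list, and they were picked as the highest of many, with no test.

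Timd4, a receptor for dying cells on resident macrophages, had 3.96 CPM in the library labelled KO1, 0.0627 CPM in KO3 and 0 counts in the other 4 libraries. The other untested genes of the wider macrophage list, Cd163 and Folr2, had at most 4 and 3 counts in any library.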
